A study of Prunus sibirica with 30 samples.

Results

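The change within the second hour of freezing in Siberian apricot (Prunus sibirica) was examined for the weakly frost-resistant clone No. 371, labelled NC. The tissue was the pistil by the labels and flowers by the protocol. The 3 libraries taken after 2 h at -4 °C were compared with the 3 libraries taken after 1 h, 6 of the 30 libraries of the study. The study sampled this clone and the strongly frost-resistant clone No. 453, labelled CR, at 0 h, 15 min, 30 min, 1 h and 2 h, with 3 libraries in each of 10 groups. Both clones had been at -4 °C for the same times, and no group was kept warm in parallel, so the effect of cold and that of passing time or handling cannot be told apart. Each clone is 1 genotype, and the labels do not say whether the 3 libraries of a group came from separate trees. P-values therefore measure the spread between libraries, which may be technical, and for single genes that spread was pooled over all 30 libraries.

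Spring frost damages open apricot flowers because ice draws water out of the cells and disrupts membranes. Cold-stressed plant cells are known to make hydrophilic LEA proteins that protect other proteins, small membrane proteins and proteases, and to tag damaged proteins with ubiquitin for breakdown. Chlorophyll-binding proteins of the light-harvesting antenna and the proteins of the ribosome are, in contrast, among the most abundant transcripts of green and growing tissue.

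The analysis covered 143 genes, listed in the deposited table in descending order of mean FPKM from 3835 to 594 over the 30 libraries. FPKM, a length-scaled expression unit, divides a gene's reads by its length and by a library total. These are highly abundant transcripts, and less abundant genes were not analysed here. A Swiss-Prot name accompanied 137 of the genes, and 69 encoded ribosomal proteins. Genes entered through their mean over all libraries, and of the 143 genes only RD19A would have had a mean below the lowest listed one without the 3 NC 2 h libraries. By the labels the tissue was the pistil, whereas the protocol speaks of flowers. None of the pistil markers searched for (such as S-RNase and AGAMOUS) and none of the petal markers was among the 143 genes, so the label could not be checked. The 6 genes of green tissue that were listed summed to between 7932 and 10260 FPKM at 1 h and to between 4353 and 6061 FPKM at 2 h. The 1 pollen marker listed, an Olee1-like protein, was at 632 to 738 FPKM at 1 h and at 402 to 551 FPKM at 2 h. The part of either tissue in the results was not tested. Among the other NC libraries, which share in the estimate of the spread, replicate 3 at 30 min stood apart with high levels of some stress-related genes, and counts are also given without it. In whole tissue, fewer cells of a type and less RNA per cell cannot be told apart.

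Between 1 h and 2 h 100 of the 143 abundant transcripts of NC fell as deposited and 6 rose. Of these 6, 5 came from a list of cold and dehydration genes, chosen with earlier results of these data known. RD19A, 1 of these 5, would have had a mean below the lowest listed one without the NC 2 h libraries. Set against each library's median, 29 of the 143 transcripts fell and 23 rose. The mean FPKM of the ARG2 and metallothionein transcripts was 4.51-fold and 4.13-fold higher at 2 h, and 2.99-fold and 2.61-fold higher without replicate 2 at 2 h. Polyubiquitin, which encodes chains of the tag for protein breakdown, rose 1.88-fold in mean FPKM. The transcript of the antenna protein of LHCII type I fell the most, to 0.41 of its mean at 1 h.

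The whole table moved down in the NC 2 h libraries. The median FPKM over the 143 genes was 766, 811 and 770 in the 1 h libraries and 749, 544 and 555 in the 2 h libraries. Every 2 h library was below every 1 h library, but replicate 1 at 2 h was close to them. On the log2(FPKM + 1) scale the mean library median fell by 0.36, from 9.61 ± 0.05 to 9.25 ± 0.26 (SD, n = 3 each). An exact two-sided permutation test gave p = 0.1, the smallest value that 3 against 3 libraries allow. Measured gene by gene against the 1 h mean, the median difference was -0.15 in replicate 1, -0.63 in replicate 2 and -0.55 in replicate 3 at 2 h. The 143 genes took 13.0%, 14.4% and 13.2% of the library total inferred from the FPKM values at 1 h and 12.4%, 10.8% and 9.75% at 2 h. Because such a shift moves all genes of a library together, each change is also given relative to the library median, that is, after subtracting it on the log2 scale.

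**Figure D1:**
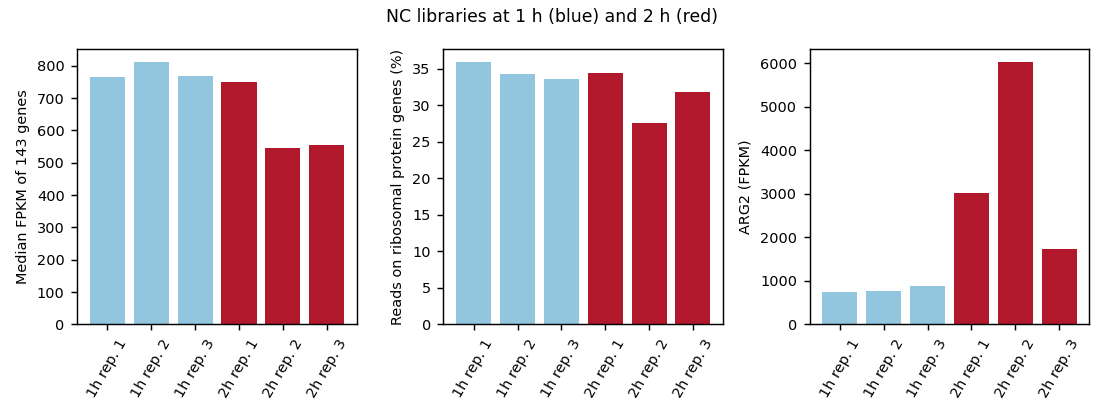
Library medians, the ribosomal share of reads and the FPKM of ARG2 in NC at 1 h and 2 h, 1 bar per library (n = 3 per group). The median FPKM was 749, 544 and 555 at 2 h against 766 to 811 at 1 h, and replicate 1 at 2 h sits nearest to the 1 h libraries.

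As deposited, 6 genes were higher at 2 h (4.2% of 143) and 100 were lower (69.9%) at an adjusted p under 0.05 in limma, 106 in all (74.1%). These tests assume the same spread in every group, estimated from all 30 libraries. The NC 2 h libraries varied most: weighting groups by their spread gave them the lowest weight, 0.30 against 1.87 for NC 1 h. With these weights 5 genes were higher and 90 lower, so the pooled spread may be too small for NC 2 h. The median change over all genes was -0.44. After this centring, 23 genes were higher (16.1%) and 29 lower (20.3%), 52 in all (36.4%), and the median change was -0.08. When libraries were instead centred on the genes outside the ribosomal lists, 15 were higher and 76 lower, so the balance of rises and falls depended on the genes taken as the reference. The FPKM ranges of the groups did not overlap for 6 higher genes (4.2%) and 84 lower genes (58.7%), and relative to the median for 21 higher (14.7%) and 45 lower (31.5%).

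All 5 genes of the cold and dehydration list rose on both scales, beside 4.2% higher over all genes as deposited and 16.1% relative to the median. Their median change was 0.89 against -0.44 over all genes. The list was chosen with earlier results of these data known, and RD19A would have had a mean below the lowest listed one without its NC 2 h libraries, so this count is a description and no independent support. ARG2, a LEA-type protein named for its induction by auxin in mung bean, lies on chromosome 8 at 23489068 to 23489630 in the deposited coordinates, whose genome build is not named. Its FPKM was 755, 759 and 878 at 1 h and 3026, 6019 and 1744 at 2 h. The groups did not overlap, and replicate 2 stood highest among the 2 h libraries. The log2 change was 1.99 ± 0.40 (SE) with an adjusted p of 0.000433, and relative to the median it was 2.35 ± 0.45.

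Metallothionein-like protein type 2, a small cysteine-rich protein that binds metals, behaved like ARG2 across the libraries. It was at 597, 742 and 1026 FPKM at 1 h and at 2011, 5661 and 2102 FPKM at 2 h, again with no overlap and again highest in replicate 2. Its log2 change was 1.91 ± 0.34 with an adjusted p of 0.000201. Both genes kept their call under all 16 alternative settings as deposited and all 18 relative to the median.

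RD19A, a cysteine protease named after a drought-induced gene of Arabidopsis, was at 559, 647 and 658 FPKM at 1 h and at 877, 1254 and 770 FPKM at 2 h. The groups did not overlap, and the log2 change was 0.61 ± 0.20 (adjusted p = 0.00795). RD19A would have had a mean below the lowest listed one without its NC 2 h libraries. Its values are therefore a description and no independent support. Without replicate 2 at 2 h the change was 0.41 and its call was lost (adjusted p = 0.0921). RCI2B encodes a small hydrophobic membrane protein whose Arabidopsis counterpart is induced by cold. Its FPKM was 746, 781 and 1088 at 1 h and 1008, 2083 and 1931 at 2 h, so replicate 1 at 2 h lay within the 1 h range, and the log2 change was 0.89 ± 0.26 (adjusted p = 0.00402). Non-specific lipid-transfer protein 1, a secreted lipid-binding protein, was at 678, 769 and 736 FPKM at 1 h and at 1245, 785 and 918 FPKM at 2 h. All its 2 h libraries were above the 1 h libraries, replicate 2 by little, and the log2 change of 0.41 ± 0.17 (adjusted p = 0.0366) kept its call under 8 of 16 alternatives. It was lost without any 1 of the 3 libraries at 1 h, and without replicate 1 or replicate 3 at 2 h. The relative change was 0.77, and that call held under all 18 alternatives. At 15 min the NC libraries held 1191, 978 and 921 FPKM of lipid-transfer protein 1, within its 2 h range. The CR libraries held 960 to 1380 FPKM over all times.

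**Figure D2:**
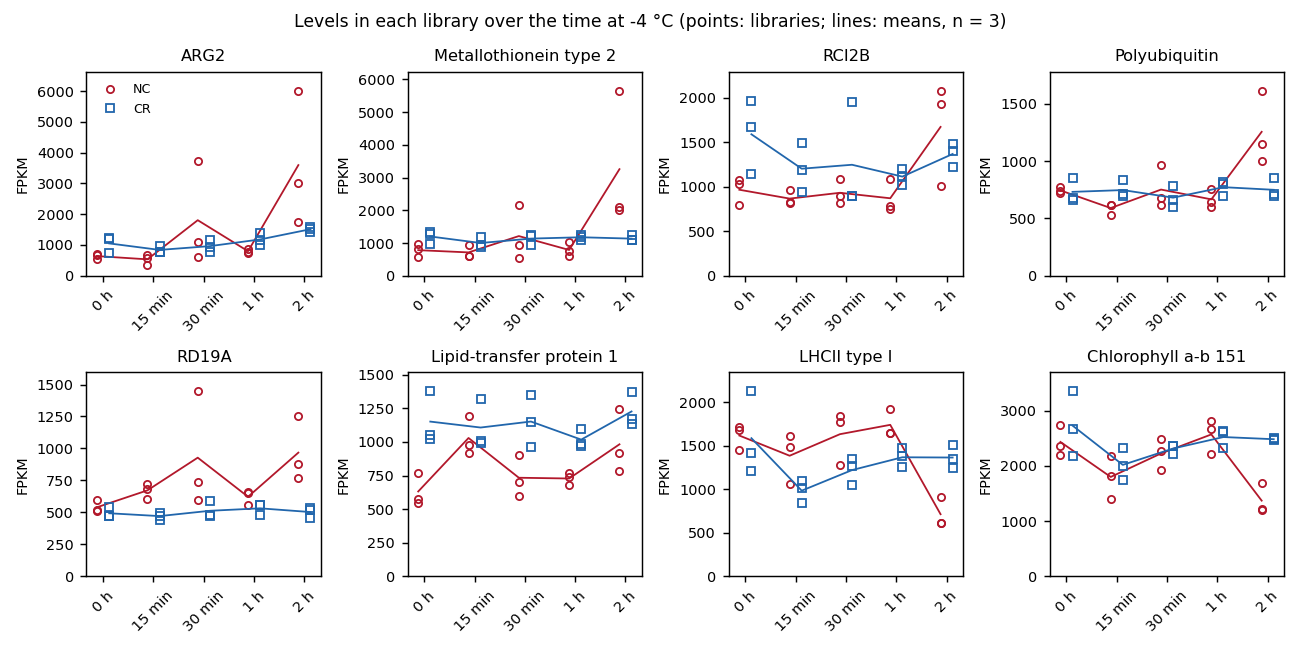
FPKM of 8 genes in each library against time at -4 °C in the NC and CR clones, with lines through the means (n = 3 libraries). At 2 h polyubiquitin lies between 1002 and 1617 FPKM in NC and no other library exceeds 965, whereas for ARG2 1 NC library at 30 min reaches 3714.

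The transcript of polyubiquitin rose as well. Polyubiquitin was at 759, 602 and 640 FPKM at 1 h and at 1150, 1617 and 1002 FPKM at 2 h. Every 2 h library exceeded every other library of either clone, of which the highest held 965 FPKM. The log2 change was 0.89 ± 0.16 (adjusted p = 0.000201) and 1.25 ± 0.18 relative to the median. The other ubiquitin gene, ubiquitin-like protein 5, which acts in pre-mRNA splicing in yeast and animals, changed by 0.10 as deposited, which did not pass the test, and rose by 0.46 relative to the median.

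Of 3 chaperone genes, 2 fell and none rose, beside 69.9% lower and 4.2% higher over all genes, and their median change was -0.61. Heat shock cognate 70 kDa protein, a general folding helper, was at 802, 753 and 688 FPKM at 1 h and at 535, 435 and 441 FPKM at 2 h. Heat shock protein 90-2, which matures signalling proteins, was at 680, 627 and 619 FPKM at 1 h and at 491, 383 and 394 FPKM at 2 h. The groups did not overlap for either gene. The log2 changes were -0.67 and -0.61 as deposited and -0.31 and -0.25 relative to the median, all past the threshold. Each relative call was lost under 5 of 18 alternatives: both without replicate 1 at 1 h and without replicate 1 or 2 at 2 h, and that of heat shock cognate 70 kDa protein also without replicate 2 at 1 h. The third gene, a peptidyl-prolyl cis-trans isomerase (cyclophilin), changed by -0.31 with an adjusted p of 0.058.

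Of 8 photosynthesis genes 6 fell and none rose, a share close to the 69.9% lower over all genes, and the median change was -0.62 against -0.44 over all genes. The gene for the chlorophyll a-b binding protein of LHCII type I, part of the antenna of photosystem II, was at 1652, 1927 and 1643 FPKM at 1 h and at 913, 617 and 608 FPKM at 2 h. The groups were well apart, and every 2 h library was below all 12 other NC libraries, of which the lowest held 1057 FPKM. In CR the lowest library held 839 FPKM, within the NC range at 2 h. The log2 change was -1.31 (adjusted p = 2.5e-05) as deposited and -0.95 (adjusted p = 1.57e-06) relative to the median. A second antenna gene, chlorophyll a-b binding protein 151, went from 2219, 2820 and 2680 FPKM to 1691, 1206 and 1216 FPKM, a log2 change of -0.92 and of -0.56 relative to the median. Both calls held under every alternative on both scales.

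Ferredoxin-1, the soluble electron carrier of the chloroplast, fell by 0.73, and by 0.37 relative to the median. The latter call held under 10 of 18 alternatives and was lost without replicate 2 or 3 at 1 h and without replicate 1 or 3 at 2 h. The Rubisco small chain, a subunit of the carbon-fixing enzyme, was at 2000, 2979 and 2646 FPKM at 1 h and at 1685, 1827 and 1034 FPKM at 2 h. It fell by 0.77, but its relative change of -0.41 did not pass the test (adjusted p = 0.0746). The photosystem II 10 kDa polypeptide went the other way: its change of 0.14 did not pass as deposited, and relative to the median it rose by 0.50, a call lost without replicate 1 at 1 h or replicate 2 at 2 h. Relative to the median the list thus held 3 falls, 1 rise and 4 genes that did not pass. Over all genes 20.3% were lower and 16.1% higher on that scale. The summed level of the 6 green-tissue markers, given above, fell between the same libraries, and these are mostly the same genes.

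Of the 5 aquaporins, membrane channels for water, 3 fell on both scales and 2 rose relative to the median. Over all genes 69.9% were lower as deposited, and relative to the median 20.3% were lower and 16.1% higher. The falls were those of PIP2-7, TIP1-1 and PIP1-2, by 0.72, 0.74 and 0.65, and by 0.36, 0.38 and 0.29 relative to the median. Of these, TIP1-1 belongs to the vacuolar membrane type and the others to the plasma membrane type. PIP1-4 was at 1149, 1299 and 1173 FPKM at 1 h and at 1327, 1649 and 1160 FPKM at 2 h. Its ranges overlapped, its change of 0.18 did not pass as deposited, and relative to the median it rose by 0.54 (adjusted p = 0.0067). PIP2-5 changed by 0.02, which did not pass, and rose by 0.38 relative to the median. The relative calls of PIP2-7 and PIP1-2 held under all 18 alternatives. Those of TIP1-1, PIP1-4 and PIP2-5 were lost without replicate 2 at 2 h, that of TIP1-1 also without replicate 2 at 1 h, and that of PIP2-5 also without replicate 1 at 1 h or replicate 3 at 2 h.

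S-adenosylmethionine decarboxylase, which feeds the synthesis of the polyamines spermidine and spermine, was encoded by 2 listed genes that moved apart. PaF106G0100003565.01 was at 734, 899 and 839 FPKM at 1 h and at 579, 442 and 479 FPKM at 2 h, a log2 change of -0.72, and of -0.36 relative to the median. PaF106G0300011722.01 was at 736, 778 and 898 FPKM at 1 h and at 812, 1060 and 809 FPKM at 2 h, a change of 0.15 that did not pass as deposited, and it rose by 0.50 relative to the median (adjusted p = 0.0298). The relative call of the former was lost without replicate 2 at 1 h, and that of the latter without replicate 1 or 2 at 1 h and without replicate 2 or 3 at 2 h. The log2 ratio of the latter to the former, which a shift of the whole library cannot move, was 0.00, -0.21 and 0.10 at 1 h and 0.49, 1.26 and 0.76 at 2 h, with no overlap. This ratio shows unequal change and not which gene moved. Among the 15 pairs of genes with the same name, the ratios did not overlap for 8, and the median size of the difference was 0.17 against 0.87 for this pair. How reads were shared between near-identical copies is not stated in these sources, so genes that share a name are uncertain in this respect.

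Most ribosomal protein genes fell with the table as a whole. Of the 26 genes of the small (40S) subunit 23 fell and 3 did not pass, and of the 43 genes of the large (60S) subunit 36 fell and 7 did not pass. The median change was -0.44 in both lists, the same as over all genes, and the 59 of 69 genes called lower stand beside a background of 69.9%, to which they belong. Of the 74 genes outside the ribosomal lists 41 were lower, with a median change of -0.39. After centring, 3 of the 69 ribosomal genes rose, 10 fell and 56 did not pass, beside 16.1% higher and 20.3% lower over all genes. These 69 are many of the 143 genes that set the median, so centring largely removes a change they share. With libraries centred instead on the genes outside the ribosomal lists, 15 of all 143 genes were higher and 76 lower. The widest relative rises were those of L37a (PaF106G0200008329.01) at 0.23, L29-1 at 0.19 and S25-2 at 0.18. The widest relative falls past the threshold were those of L10 (PaF106G0800031311.01) at -0.31, L13a-4 at -0.28 and S4 at -0.26. The relative call of S4 held under all 18 alternatives. Those of L10 and L13a-4 were lost without replicate 1 at 1 h or replicate 2 at 2 h, and that of L37a without replicate 2 at 1 h. L29-1 and S25-2 kept theirs under 11 of 18 each, and lost it without replicate 1 or 2 at 1 h and without replicate 2 or 3 at 2 h. S25-2 also lost its call when libraries were centred outside the ribosomal lists, where its change was 0.04. L5-2 and P3-1, at -0.34 and -0.32, did not pass. Reads on ribosomal protein genes were 35.9%, 34.3% and 33.6% of the reads on the table at 1 h and 34.4%, 27.6% and 31.8% at 2 h. The groups overlapped, and the difference of -3.30 percentage points was not larger than the spread (exact two-sided permutation test, p = 0.3, n = 3 each).

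All 3 cytoskeleton genes fell on both scales, beside 69.9% lower over all genes as deposited and 20.3% relative to the median. As deposited tubulin alpha fell by 0.63, tubulin beta-1 by 0.60 and SPIRAL1-like 1, a microtubule-associated protein, by 0.61. The relative calls of tubulin alpha and tubulin beta-1 (adjusted p = 0.0375 each) held under 11 and 10 of 18 alternatives, and both were lost without replicate 1 at 1 h and without replicate 1 or 2 at 2 h. The former was also lost without replicate 3 at 2 h and the latter without replicate 2 at 1 h, and SPIRAL1-like 1 lost its relative call without replicate 2 at 2 h. All 4 genes of glycolysis and carbon metabolism (glyceraldehyde-3-phosphate dehydrogenase, enolase, fructose-bisphosphate aldolase and malate dehydrogenase) fell, beside the 69.9% over all genes. Their changes were from -0.45 to -0.27, and none passed relative to the median. Glyceraldehyde-3-phosphate dehydrogenase lost its call without replicate 1 or 2 at 1 h or replicate 2 at 2 h. Of 10 histone and HMG genes 6 fell, a smaller share than the 69.9% over all genes. Relative to the median 1 fell and 2 rose, beside 20.3% lower and 16.1% higher over all genes. The linker Histone H1.2 went from 876, 783 and 739 FPKM to 615, 439 and 453 FPKM, a log2 change of -0.68 and of -0.32 relative to the median. High mobility group B protein 2 (PaF106G0700026960.01) changed by 0.06 as deposited, which did not pass, and rose by 0.42 relative to the median. For Histone H4, which 3 listed genes encode, all 3 fell as deposited and none passed relative to the median, and without replicate 2 at 2 h all 3 calls were lost. That of PaF106G0200009755.01 was also lost without any 1 library at 1 h or replicate 3 at 2 h.

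Of 4 defence and phenol-oxidation genes 3 fell as deposited, a share close to the 69.9% over all genes, and none passed relative to the median. Polyphenol oxidase, the browning enzyme and among the most abundant transcripts listed, was at 4123, 4472 and 4650 FPKM at 1 h and at 3192, 2862 and 3040 FPKM at 2 h, a change of -0.54. AED3, an aspartyl protease, fell by 0.57 and a thaumatin-like protein by 0.54, whereas defensin-like protein 2 changed by -0.27, which did not pass. Of the redox pair, thioredoxin H-type, a disulphide reductase, was at 648, 735 and 645 FPKM at 1 h and at 806, 830 and 745 FPKM at 2 h. Its change of 0.23 did not pass as deposited, although the groups did not overlap, and it rose by 0.59 relative to the median (adjusted p = 0.000812). Cytosolic L-ascorbate peroxidase, which removes hydrogen peroxide, fell by 0.38 and did not pass relative to the median.

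Of the remaining lists, 1 of 3 translation factor genes (Elongation factor 1-alpha, PaF106G0600022515.01, at -0.46) and 1 of 3 glycine-rich protein genes (Glycine-rich RNA-binding protein 2, at -0.75) fell. Both shares were below the 69.9% lower over all genes. Relative to the median no translation factor gene fell and 1 rose, Translation machinery-associated protein 7 by 0.57, while Glycine-rich RNA-binding protein 2 still fell, by 0.39. A xyloglucan endotransglucosylase, which remodels the cell wall, fell by 0.27, a call lost without replicate 2 or 3 at 1 h or at 2 h. A non-classical arabinogalactan protein changed by -0.14, which did not pass, and neither gene passed relative to the median. A histidine-containing phosphotransfer protein of cytokinin signalling and the ATP synthase 6 kDa subunit did not pass as deposited, and rose by 0.42 and 0.36 relative to the median. The former call was lost without replicate 1 at 1 h or replicate 3 at 2 h, and the latter held under all 18 alternatives. Adenosylhomocysteinase, of the methyl cycle, fell by 0.36 and did not pass relative to the median. Of the 15 genes in no list 8 fell and none rose, beside 69.9% lower and 4.2% higher over all genes. Relative to the median 5 of them fell and 3 rose, beside 20.3% and 16.1%.

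**Figure D3:**
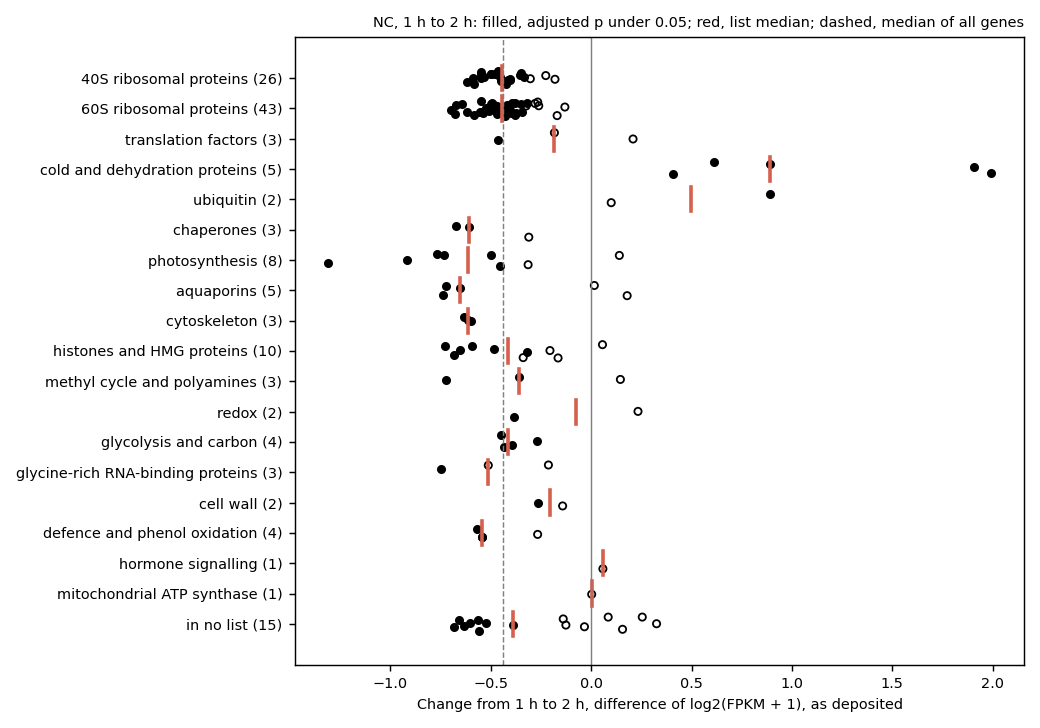
Change from 1 h to 2 h of each of 143 genes in NC, by gene list, as the difference of log2(FPKM + 1). Filled points have an adjusted p under 0.05 and the dashed line is the median of all genes. The cold and dehydration genes lie between 0.41 and 1.99, and the medians of both ribosomal lists lie at -0.44, on the dashed line.

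**Figure D4:**
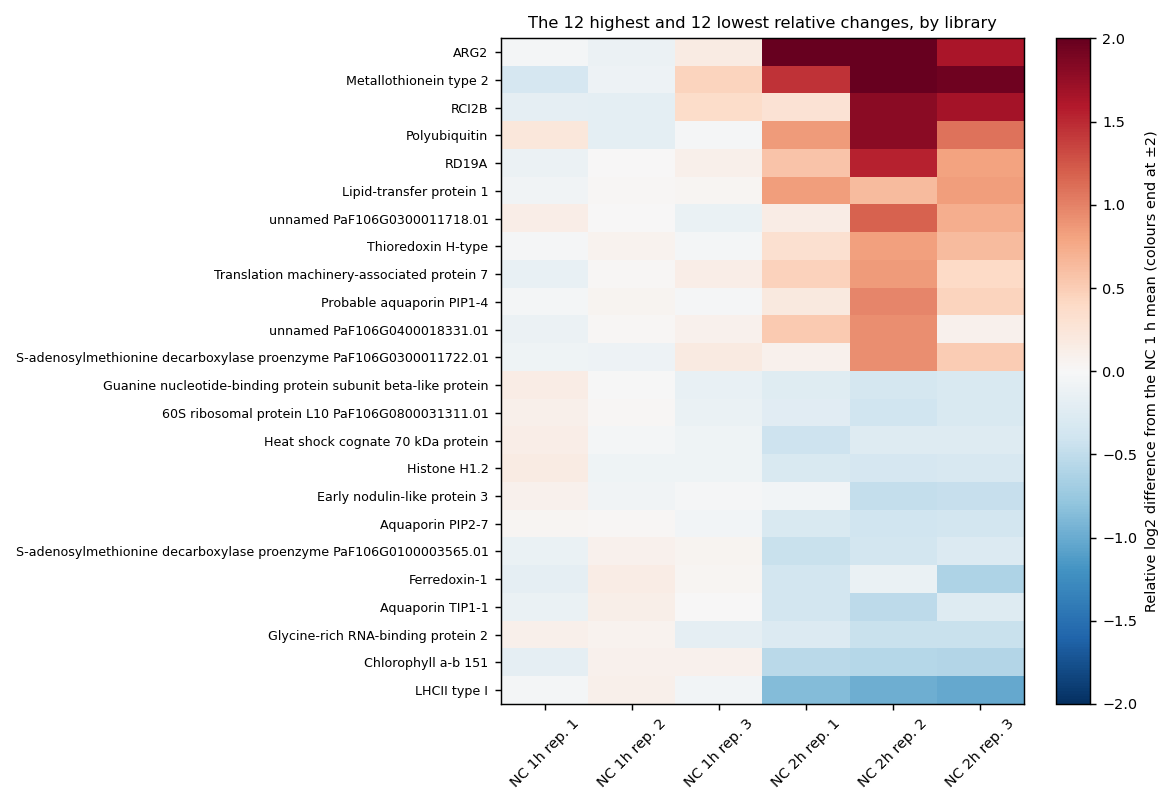
Relative log2 difference of the 12 highest and 12 lowest genes past the threshold from the NC 1 h mean in each library, with colours ending at -2 and 2. ARG2 and metallothionein are darkest in replicate 2 at 2 h, and LHCII type I is low in all 3 libraries at 2 h.

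The second hour was then set against the first hour of the same clone. From 0 h to 1 h no gene passed the test in NC (0 with voom weights, 1 at an unadjusted p under 0.05), and relative to the median Histone H1.2 alone did, with a rise of 0.34 (1 gene, 0.699%, and 0 with voom weights). The direct test of the difference between the hours, whose steps share the 1 h libraries, called 4 genes (2.8%) as deposited and 5 (3.5%) relative to the median. As deposited, 1 gene (0.699%) had the higher change in the second hour, polyubiquitin with a difference of 1.06, and the other 3 (2.1%) the lower: LHCII type I with -1.42, Histone H1.2 with -1.06 and the decarboxylase gene PaF106G0100003565.01 with -0.82. After centring, polyubiquitin (1.45) and High mobility group B protein 2 (PaF106G0700026960.01, 0.53) were higher (2 genes, 1.4%), and LHCII type I (-1.02), Histone H1.2 (-0.66) and chlorophyll a-b binding protein 151 (-0.60) lower. These counts rested on the libraries used. Without replicate 2 at 1 h, 0 genes passed as deposited and 2 relative to the median, none of them higher, so that the polyubiquitin call was lost on both scales. Without replicate 3 at 1 h the counts were 2 and 3, with no higher gene as deposited, and without replicate 1 at 1 h they were 4 and 3. Without replicate 1 at 2 h they were 95 and 9, without replicate 2 at 2 h 3 on either scale with no higher gene as deposited, and without replicate 3 at 2 h 5 and 3. Without replicate 1 at 0 h they were 31 and 9, and without replicate 3 at 0 h 4 and 3. Without NC 30 min replicate 3 they were 9 and 8, and with only the groups compared 1 and 1.

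ARG2 and metallothionein were not among the genes that differed between the hours (adjusted p = 0.0807 and 0.0661 as deposited). An earlier library also held them high: replicate 3 at 30 min had 3714 FPKM of ARG2, 2159 of metallothionein and 1450 of RD19A. That library stands within or above the 2 h range for these 3 genes. Leaving it out left the counts between 1 h and 2 h at 6 higher and 100 lower as deposited.

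The same step was compared between the clones, with no library shared. The difference between the NC change and the CR change passed the test for 113 genes (79.0%) as deposited, 4 higher (2.8%) and 109 lower (76.2%) in NC, and for 13 genes (9.09%) relative to the median, 8 higher (5.59%) and 5 lower (3.5%). In CR no gene passed between 1 h and 2 h (0 with voom weights, 8 at an unadjusted p under 0.05), and the median change was 0.14. A fit of the CR 1 h and 2 h libraries alone called 41 genes higher in CR.

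The higher genes in NC relative to the median included metallothionein, whose change exceeded that in CR by 2.44, ARG2 by 2.10, polyubiquitin by 1.42, RD19A by 1.17 and PIP1-4 by 0.78. RD19A is given as a description, since its place among the listed genes depends on its high NC 2 h values. Thioredoxin H-type, PIP2-5 and ubiquitin-like protein 5 completed the 8, with 0.71, 0.62 and 0.50. LHCII type I differed by -0.82. The other 4 lower genes encoded ribosomal proteins, with -0.28 for L9-1, -0.28 for S15-4 (PaF106G0100000387.01), -0.27 for S16 and -0.26 for S18. In FPKM, metallothionein went from 788 ± 218 to 3258 ± 2082 in NC and from 1177 ± 69.8 to 1135 ± 91.1 in CR (SD, n = 3 each). ARG2 went from 797 ± 70.2 to 3596 ± 2194 in NC and from 1180 ± 197 to 1512 ± 78.7 in CR.

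Without replicate 2 of NC at 2 h, 2 genes passed relative to the median, polyubiquitin at 1.14 and LHCII type I at -0.81. Of the 5 highest and 5 lowest genes of this test, the other 8 kept their sign without passing, for example ARG2 at 1.56 and metallothionein at 1.87. Without replicate 1 of NC at 2 h, 35 genes passed. RCI2B and lipid-transfer protein 1 did not differ between the clones past the threshold, with 1.08 (adjusted p = 0.12) and 0.62 (adjusted p = 0.0863). Gene length moved with the change in CR more than in NC. Across the 143 genes, which share their libraries, Spearman's rho of change against length was -0.59 in CR and -0.16 in NC, and its part in the result was not tested.

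**Figure D5:**
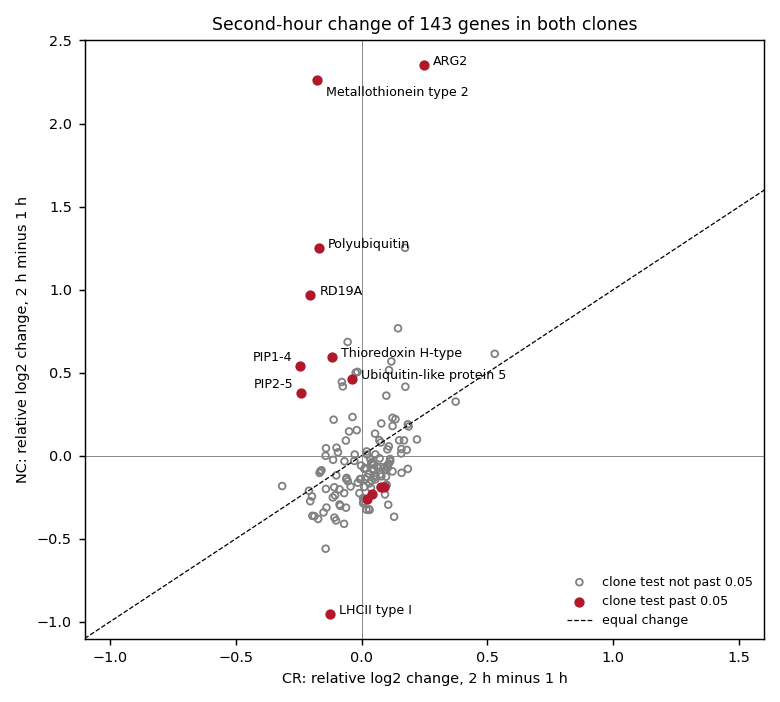
Change from 1 h to 2 h in NC against that in CR for 143 genes, both as relative log2 differences, with the line of equal change; filled points passed the test of the difference between clones. Metallothionein, ARG2, polyubiquitin and RD19A lie above the line and LHCII type I lies below it, at -0.95 in NC.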

How the data were processed

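RNA sequencing, of the pistil by the labels and of flowers by the protocol, was deposited by the authors as FPKM for 30 libraries. Gene length and coordinates were other columns. The submitters' processing notes name HISAT2, Picard, SAMtools 0.1.18 and GATK, without role or order. Not given in the sources used here were the counter, annotation and build. Deposited FPKM times length, scaled by a divisor inferred for each library, gave whole reads for 4290 of 4290 values (tolerance 1e-06), with 1731103 to 2700550 reads on the table per NC 1 h or 2 h library. The lowest value there was 2481 reads, a counting error of 2.01%. No value column (0) was unmapped, and 1 incomplete last row was left out.

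FPKM were taken as log2(FPKM + 1), as deposited or centred on each library's median, so log2 changes are on that scale, while folds are ratios of mean FPKM. limma 3.58.1 (R 4.3.3) fitted 10 group means over all 30 libraries with a mean-variance trend, two-sided, with Benjamini-Hochberg adjustment over 143 genes and a threshold of 0.05. Steps were tested on simulated data. Alternatives changed the pseudocount, filter, trend, libraries, centring, block and weights. A limma voom fit used the recovered reads. Groups came from the labels. The labels do not say whether equal replicate numbers mark paired samples, and the main fit did not pair them. Deviations of same-numbered NC 1 h and 2 h libraries correlated at 0.24, -0.01 and -0.09. Those of other-numbered libraries ranged from -0.65 to 0.62, so with 3 libraries a group these values cannot decide on pairing.

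Genes were named by rule: the 12 widest calls in each direction on both scales, members of the lists other than ribosomal, the 3 highest and 3 lowest of each ribosomal list, and the 5 highest and 5 lowest calls between clones. Other named genes were chosen after their values were seen. Members and lists were chosen with earlier results of these data known.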

Additional observations from a re-analysis of the deposited data

Results flagged for a closer look

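The change from 1 h to 2 h differed between the clones for 113 genes as deposited and for 13 genes relative to the library median, by the test of the difference itself. Relative to the median the NC change exceeded the CR change by 2.44 for metallothionein, 2.10 for ARG2, 1.42 for polyubiquitin, 1.17 for RD19A and 0.78 for PIP1-4. Without its NC 2 h values RD19A would lie below the lowest listed mean, so its difference is a description. Without replicate 2 of NC at 2 h, 2 genes passed, polyubiquitin and LHCII type I. It was below the CR change for LHCII type I (-0.82), L9-1 (-0.28), S15-4 (PaF106G0100000387.01, -0.28), S16 (-0.27) and S18 (-0.26).

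Within NC, the second hour differed from the first for 4 genes as deposited and 5 genes relative to the median, by the test of that difference. Without NC 1 h replicate 2 the counts were 0 and 2, and with only the groups compared 1 and 1. As deposited, LHCII type I (-1.42), Histone H1.2 (-1.06) and the S-adenosylmethionine decarboxylase gene PaF106G0100003565.01 (-0.82) were lower and polyubiquitin (1.06) was higher. Relative to the median, LHCII type I (-1.02), Histone H1.2 (-0.66) and chlorophyll a-b binding protein 151 (-0.60) were lower, and polyubiquitin (1.45) and High mobility group B protein 2 (PaF106G0700026960.01, 0.53) were higher.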

How the results depend on the processing

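As deposited, the count between 1 h and 2 h ranged from 72 to 117 over 16 alternatives, and 4 of 6 higher and 61 of 100 lower genes kept their call under all of them. Relative to the median, 8 of 23 higher and 9 of 29 lower genes did so under 18. Of the values followed for the 78 named genes, none changed sign while passing the threshold in the main or the alternative fit. Sign changes of values between 1 h and 2 h that passed in neither fit were not counted. Array weights, centring on the median deviation and leaving out NC 30 min replicate 3 were chosen after seeing the data.

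The count relative to the median was 26 with only the groups compared and 91 when centred outside the ribosomal lists. The clone count relative to the median was 21 with only the groups compared, 28 with array weights and 70 when centred outside the ribosomal lists. The count between the hours was 1 with only the groups compared and 60 with array weights, and relative to the median 1 and 11. The cause was not tested.

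Leaving out 1 library at a time gave -0.51 to -0.28 for the library median, -4.88 to -1.48 for the ribosomal share, 78 to 117 for the count as deposited and 28 to 58 relative to the median. For the clone test it gave 75 to 119 and 2 to 35, and between the hours 0 to 95 and 2 to 9. With the replicate block the counts were 109 and 52 between 1 h and 2 h, 114 and 10 between clones and 5 and 5 between hours, as deposited and relative to the median. What libraries with equal replicate numbers share is not stated in the labels. Counting error is small for these abundant genes, and precision is set by 3 libraries a group.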
